A study of Mus musculus with 6 samples.

Results

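A set of 9 host-defence genes was followed through the cells of the mouse renal cortex, in WT mice and in mice lacking *Prdm16*. The 9 genes, of 26903 gene symbols in the count tables, were the beta-defensins *Defb1*, *Defb2* and *Defb11*, the lipocalin *Lcn2*, the polymeric immunoglobulin receptor *Pigr*, the trefoil factor *Tff2*, and *Slpi*, *Wfdc2* and *Wfdc15b*, whose proteins carry whey acidic protein (WAP) domains. All 9 were found by symbol in each of the 6 libraries. They were chosen with earlier results of these libraries known. The values that chose them were the levels of *Tff2* and *Defb2* in the connecting tubule, of *Defb2* and *Defb11* in intercalated cells, and of *Lcn2* and *Defb2* summed over all cells, so those 6 contrasts are given below as values without a p-value.

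Single-cell libraries were made on the BD Rhapsody system from dissociated renal cortex of 9-month-old mice, 1 library from each of 3 WT and 3 *Prdm16* global knockout (KO) mice. The labels give all 6 mice as male. The KO allele lacks exon 2 of *Prdm16*, a deletion made with CRISPR-Cas9 in the germ line on a C57BL/6J background, so that every cell of the animal carries it and no tissue was spared. No treatment was given to either group.

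Epithelia of the urinary tract are guarded by secreted peptides and proteins. Beta-defensins are small cationic peptides, held in shape by disulfide bridges between 6 cysteines, that disrupt microbial membranes, and *Defb1* is the member best known from the distal nephron, where it is made without induction. Lipocalin-2, also called NGAL, binds bacterial siderophores and so withholds iron. It is stored in neutrophil granules, is released by collecting duct cells during urinary infection, and is widely used as a marker of tubular injury. *Slpi* encodes a secreted inhibitor of neutrophil elastase, *Pigr* the receptor that carries immunoglobulin A across epithelia, *Wfdc2* the secreted protein HE4, and *Tff2* a trefoil peptide known mainly from the mucous cells of the stomach.

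The coding sequences of the 3 beta-defensins are shown because *Defb2* and *Defb11* moved together in what follows and are close relatives. *Defb9*, a neighbour that resembles both, is shown beside them. Sequences are those of the GENCODE annotation on GRCm38, 5′ to 3′, with in-frame cysteine codons in capitals, and the last 6 of them in each gene are those of the mature defensin.
Defb1: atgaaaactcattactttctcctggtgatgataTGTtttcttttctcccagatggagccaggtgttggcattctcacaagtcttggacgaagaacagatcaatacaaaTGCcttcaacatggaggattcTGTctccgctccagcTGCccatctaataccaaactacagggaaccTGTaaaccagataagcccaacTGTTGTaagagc
Defb2: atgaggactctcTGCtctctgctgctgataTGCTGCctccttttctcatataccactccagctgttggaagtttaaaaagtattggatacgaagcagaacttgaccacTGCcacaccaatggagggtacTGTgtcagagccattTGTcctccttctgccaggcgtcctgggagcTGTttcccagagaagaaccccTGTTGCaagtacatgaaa
Defb11: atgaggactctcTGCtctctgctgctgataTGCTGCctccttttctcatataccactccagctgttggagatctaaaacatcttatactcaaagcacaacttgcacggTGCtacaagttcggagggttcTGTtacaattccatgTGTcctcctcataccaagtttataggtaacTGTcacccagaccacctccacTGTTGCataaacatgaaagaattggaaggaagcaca
Defb9: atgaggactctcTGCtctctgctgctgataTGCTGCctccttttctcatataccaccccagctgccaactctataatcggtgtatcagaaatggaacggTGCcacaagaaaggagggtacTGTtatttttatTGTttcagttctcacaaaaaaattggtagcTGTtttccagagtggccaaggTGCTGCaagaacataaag

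*Defb2* and *Defb11* had 76.1% identical bases over 213 aligned coding bases, and their transcripts shared an unbroken run of 102 bases at the 5′ end. *Defb1* was more distant, with 57.5% to 63.4% identity to the other 3 genes and no shared run above 15 bases. The assay captures transcripts by their 3′ ends. After the shared run *Defb2* and *Defb11* had 203 and 215 further bases in which they differ, but reads falling within the run cannot be assigned to either gene, and some uncertainty in the split of their UMIs remains. All 4 genes lie in the beta-defensin cluster of chromosome 8 (GRCm38), *Defb1* at chr8:21776599-21795185 on the plus strand, *Defb2* at chr8:21839926-21843482 on the plus strand, *Defb9* at chr8:21881713-21885421 on the minus strand and *Defb11* at chr8:21905376-21906412 on the minus strand. *Defb2* and *Defb11* each shared runs of 40 bases with *Defb9* and *Defb10* besides each other. Of the remaining members, *Pigr* shared such a run with 79 genes, while *Lcn2*, *Slpi*, *Wfdc2*, *Wfdc15b*, *Tff2* and *Defb1* shared none.

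The 250 bases before the start of *Defb11* and of *Defb9* are shown because these neighbours, which both had lower levels in KO connecting tubule cells, also resemble each other upstream. They were taken from RefSeq on GRCm38, which held promoter windows for 6 of the 9 members. Both are written along the minus strand, with the longest run they share in capitals.
Defb11, chr8:21906433-21906682: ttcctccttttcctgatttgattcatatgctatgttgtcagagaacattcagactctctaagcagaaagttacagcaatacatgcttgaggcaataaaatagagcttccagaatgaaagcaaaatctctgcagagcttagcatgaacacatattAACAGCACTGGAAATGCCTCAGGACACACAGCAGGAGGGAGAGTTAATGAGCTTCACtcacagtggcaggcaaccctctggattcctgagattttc
Defb9, chr8:21885435-21885684: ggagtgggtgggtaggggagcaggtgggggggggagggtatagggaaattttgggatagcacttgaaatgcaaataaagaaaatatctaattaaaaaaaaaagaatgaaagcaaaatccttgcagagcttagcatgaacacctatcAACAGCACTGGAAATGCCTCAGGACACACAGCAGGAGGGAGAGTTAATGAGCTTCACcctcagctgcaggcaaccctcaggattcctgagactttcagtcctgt
The windows had 72.4% identical bases over 239 aligned bases. The shared run of 57 bases ended 40 bases before the start of *Defb11* and 48 bases before that of *Defb9*. The run was defined from these 2 windows, so its presence in both was given. Among the windows of 27025 genes only these 2, or 0.0074%, held it. *Defb1*, *Defb2* and *Tff2* had no window and could not be searched.

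After filtering, 14655 WT cells and 13833 KO cells remained, from 3538 to 6276 per library, and their UMIs summed to between 22965576 and 35466583 per library. The libraries WT 2 and KO 1 did not match the label of male mice. *Xist*, the transcript of the inactive X chromosome, was measured in WT 2 (297 CPM) and KO 1 (307 CPM), against at most 0.218 CPM elsewhere, so results below are also given without these libraries where that changes a call. *Prdm16* itself was detected at 26.7 to 32.1 CPM among WT mice and 21.3 to 25.3 CPM among KO mice, and since counting from the 3′ end lies outside the deleted exon this does not check the labels. Neutrophil-like cells made up 0, 0.608 and 0.0221% of cells in WT 1, 2 and 3 and 3.65, 1.52 and 1.36% in KO 1, 2 and 3 (0.210 ± 0.345% against 2.18 ± 1.28%, SD, n = 3, two-sided exact permutation p = 0.1, the smallest that 3 against 3 allows). Barcode numbers of 20 cells occurred in more than 1 library.

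Cells were grouped by clustering without the 9 members, and clusters were named after the cell type whose markers they carried. The names stand for profiles like those of the type. They were LOH for the thick ascending limb of the loop of Henle, MD for the macula densa, DCT for the distal convoluted tubule, CNT for the connecting tubule, PC and IC for the principal and intercalated cells of the collecting duct, DLH for the descending limb, and podocytes, endothelial, stromal, macrophage and T and natural killer (T-NK) cells. These 12 classes had at least 20 cells in every library. Levels are given as CPM, the UMIs of a gene scaled to a fixed total, over the summed cells of a class in a library, and barcodes with 10 to 100 UMIs, too few for a cell, were summed as a measure of free RNA in the suspension.

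All 3 beta-defensins had their highest levels in the distal nephron, from the DCT to the collecting duct. *Defb1* in WT libraries was highest in CNT, at 3804, 2150 and 4412 CPM in WT 1, 2 and 3, followed by DCT, IC and PC, whose ranges overlapped with it. It stood at 558 to 785 CPM in LOH and at 21.3 to 33.1 CPM in podocytes, against 671 to 1135 CPM in free RNA. A UMI of *Defb1* was found in 97.4 to 98.5% of WT CNT cells, and also in 9.05 to 11.5% of WT podocytes, where the level was below that of free RNA in all 6 libraries.

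*Defb2* and *Defb11* were centred on the CNT and collecting duct. In WT libraries *Defb2* was highest in CNT (58.2 to 83.2 CPM) and PC (58.3 to 77.3 CPM), which did not differ beyond their spread, then IC (22.7 to 42.1 CPM), DCT (6.71 to 20.1 CPM) and LOH (1.13 to 2.93 CPM). *Defb11* was also highest on average in CNT (45.8 to 69.7 CPM) and then PC, and lower in LOH (6.46 to 10.1 CPM). Unlike *Defb2*, its WT ranges in IC (16.5 to 32.4 CPM) and DCT (17.3 to 28.65 CPM) overlapped. Over the 12 classes the profiles of these genes were alike (Pearson r = 0.97), and *Defb1* was close to *Defb11* (r = 0.91). Both values are on the log2 of CPM averaged over all 6 libraries, WT and KO, and describe 12 classes of the same libraries.

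The connecting tubule itself was not uniform. The smaller CNT cluster, with *Calb1* and *Slc12a3* among its leading genes and the DCT as its second-best marker list, held 13.6, 19.1 and 18.7 CPM of *Defb2* in WT 1, 2 and 3, while the larger CNT cluster, led by *Trpv5* and *S100g*, held 106, 89.2 and 76.9 CPM. The libraries of these clusters did not overlap. For *Defb1* the same clusters differed little, at 2477 to 4131 and 2055 to 4585 CPM. Type A and type B intercalated cells were likewise close for *Defb2* but apart for *Defb1*, which was at 2703 to 3476 CPM in WT type A cells and 884 to 1313 CPM in WT type B cells.

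*Pigr* and *Wfdc15b* marked the earlier segments. *Wfdc15b* was at 2103 to 2180 CPM in WT LOH cells and 1045 to 1357 CPM in DCT cells, and below 200 CPM in every other epithelial class of WT libraries. Among the 12 classes *Pigr* was highest in the DCT, at 391, 259 and 424 CPM in WT 1, 2 and 3, with LOH next at 91.0 to 143 CPM and the MD at 79.5 to 80.3 CPM. *Wfdc2* was spread most evenly over the distal nephron, from 386 to 490 CPM in IC to 978 to 1129 CPM in CNT.

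*Lcn2* and *Slpi* departed from the epithelial pattern. In WT libraries *Lcn2* was a principal cell gene, at 70.6 to 91.5 CPM in PC and no more than 12.7 CPM in the MD, LOH, IC, CNT or DCT, and PC held 44.3% of its UMIs in WT cells. The description of the set as epithelial was not met by *Slpi* in these libraries. In neutrophil-like cells it was at 1712, 2366 and 2085 CPM in KO 1, 2 and 3, and of its 2226 UMIs in KO cells 95.5% came from them, whereas no epithelial class, podocytes included, exceeded 6 CPM in any library. *Tff2* was nearly silent in WT cells, with 36 UMIs in all, of which 14 lay in CNT, 19 in IC and 3 in proximal tubule cells.

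The genes most like each member were sought among 6319 genes that reached 50 CPM in a class, with levels averaged over all 6 libraries, WT and KO. *Defb1* was closest to *Akr1c19*, *Cldn8* and *Atp4a* (r = 0.98, 0.98 and 0.97 over 12 classes), *Defb2* to *Rec8*, *Pgam2* and *Kcnq1*, and *Defb11* to *Kcnj10*, *Tmem52b* and *Kcnq1*. *Tff2* was closest to *Kcne1*, *Trpv5* and *Hsd11b2* (r = 0.95, 0.95 and 0.94), of which *Trpv5* encodes the apical calcium channel of the connecting tubule. *Wfdc15b* was closest to *Gm44588*, *Umod* and *Prox1* (r = 0.91, 0.88 and 0.87), where *Umod* encodes uromodulin, the main protein of the thick ascending limb. *Wfdc2* was closest to *Pou3f3*, *Sim1* and *2610528J11Rik*, *Pigr* to *Gm15848*, *Shmt1* and *Tmem72*, *Lcn2* to *1500015A07Rik*, *Btc* and *Ethe1*, and *Slpi* to *Rilpl2*, *Sla* and *Fam49b*. The 12 classes leave out neutrophil-like cells, which held 89.6% of *Slpi* UMIs, so its pattern rests on levels of at most 6.08 CPM. The *Tff2* pattern is mostly that of KO cells, with 544 of 580 UMIs.

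**Figure D1:**
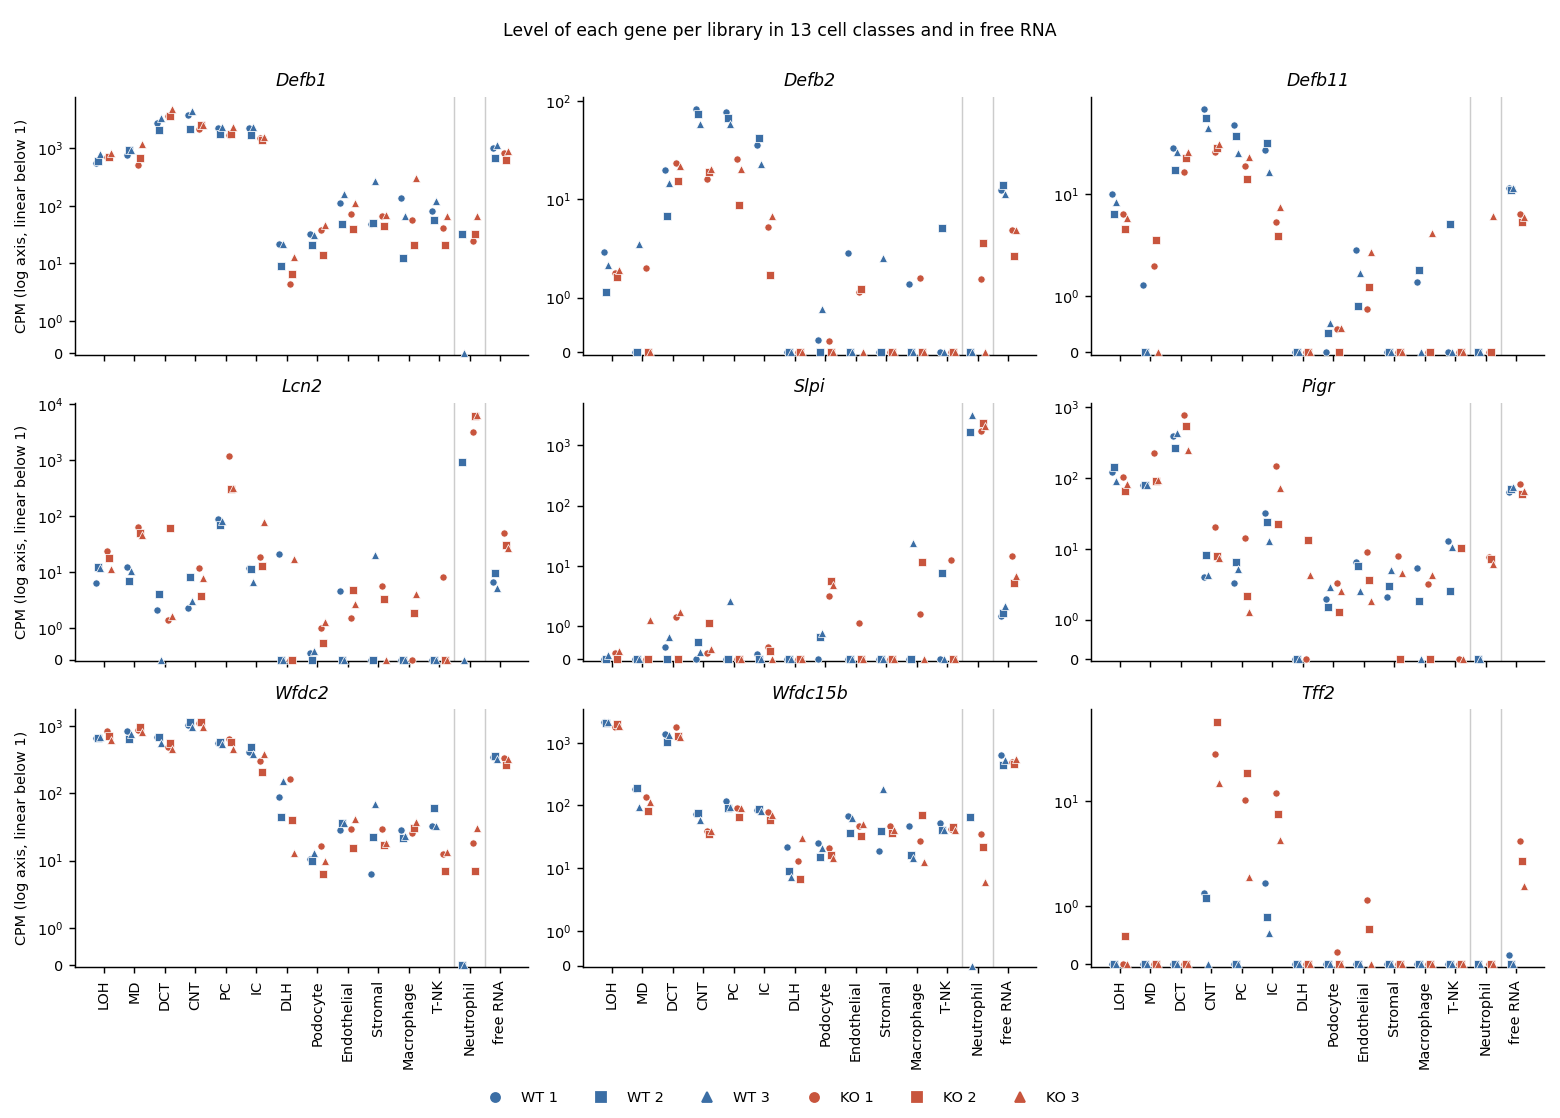
Level of each of the 9 genes (y axis, CPM on a log axis that is linear below 1) in 13 cell classes and in free RNA (x axis), with 1 point per library, WT in blue and KO in red. *Defb1*, *Defb2*, *Defb11* and *Tff2* sit highest from DCT or CNT to IC, *Wfdc15b* is highest in LOH at 1777 to 2180 CPM, and *Slpi* exceeds 1000 CPM only in neutrophil-like cells.

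KO was compared with WT in each of the 12 classes, on summed UMIs with edgeR's quasi-likelihood test, adjusted over all genes tested in that class. Of 108 pairs of a member and a class, 57 had enough UMIs to be tested. Of these, 4 chose the members, 2 in CNT and 2 in IC, and are left out of the counts that follow. Of the remaining 53 pairs 7 passed, 4 higher and 3 lower in KO. In CNT 2 of 6 members passed, against 3.09% of all genes, in PC 2 of 7 against 2.29%, and in IC 1 of 6 against 0.841%. In the MD 1 member passed (of 5, against 1.22% of all genes) and 1 in podocytes (of 5, against 1.76%). The sums over all cells that chose *Lcn2* and *Defb2* hold the UMIs of every class. The calls in PC and the MD are of these genes, so they are not free of the choice. The call in IC is of *Tff2*, chosen by its CNT level in the same mice. Of the calls in CNT, that of *Defb11* is of a gene chosen by its IC level. These are not free of the choice either.

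By edgeR and by DESeq2 no member passed in LOH (7 tested, 4 at an unadjusted p under 0.05, 4.43% of all genes), DCT (6 tested, 2 at an unadjusted p under 0.05, 1.28%), endothelial cells (3 tested, 0.207%), macrophages (3 tested, 0.479%), stromal cells (2 tested, 0.0696%) or T-NK cells (2 tested, 1 at an unadjusted p under 0.05, 0.0256%). In DLH 1 member was tested and edgeR called 0% of genes, with 240 of 3317 at an unadjusted p under 0.05 and 4 called by DESeq2. The count filter decides which members were tested, so these counts are not counts over all 9.

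**Figure D2:**
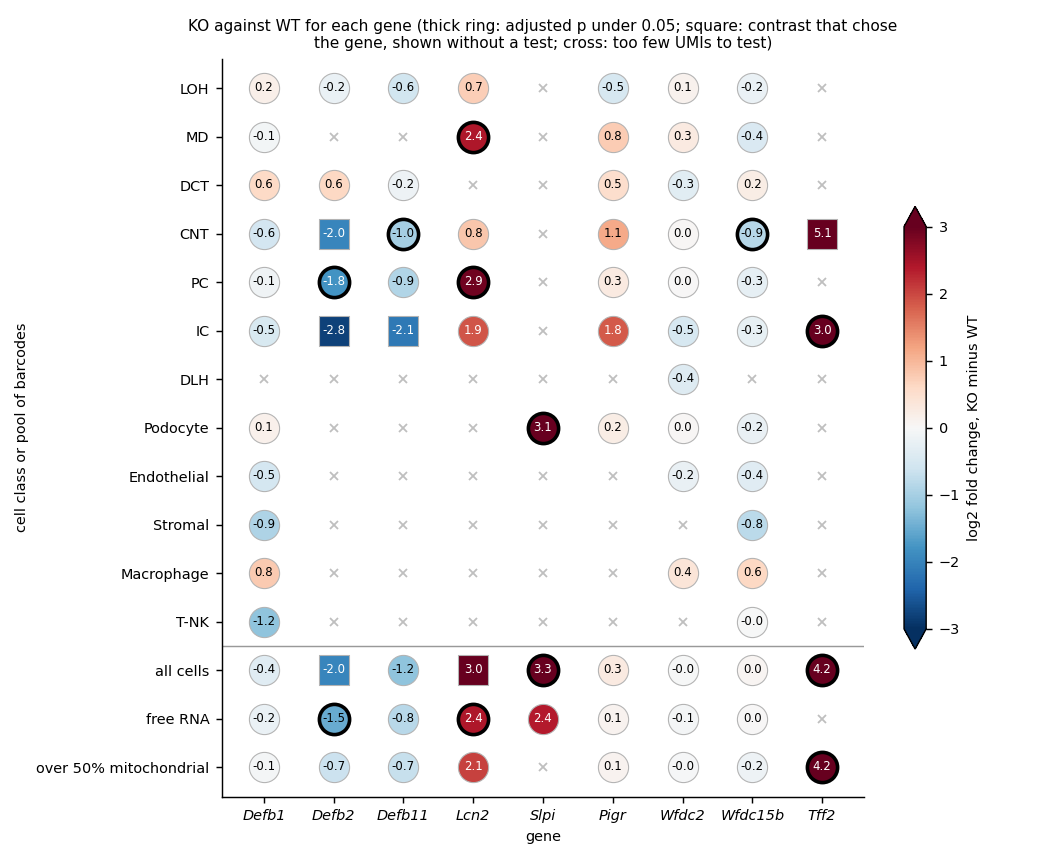
Log2 fold change of KO over WT (colour and printed value) for each gene (x axis) in 12 cell classes and 3 pools of barcodes (y axis), with a thick ring where the edgeR adjusted p was under 0.05, a square for the 6 contrasts that chose the genes, which carry no test, and a cross where UMIs were too few to test. Among the classes CNT and PC have 2 rings each, IC, MD and podocytes 1 each, and LOH and DCT none.

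*Defb2* was lower in the KO connecting tubule and collecting duct. In CNT it reached 83.2, 73.4 and 58.2 CPM in WT 1, 2 and 3 and 16.3, 18.9 and 20.4 CPM in KO 1, 2 and 3 (71.6 ± 12.6 against 18.5 ± 2.08 CPM, SD, n = 3, a log2 fold change of −1.98). In IC it was at 36.2, 42.1 and 22.7 CPM among WT mice and 5.26, 1.71 and 6.76 CPM among KO mice, a log2 fold change of −2.80. Neither class had overlapping groups, and since both contrasts chose the gene they are given without a test. In PC *Defb2* fell by 1.79 on the log2 scale (SE 0.25, edgeR adjusted p = 0.00337), from 77.3, 67.7 and 58.3 CPM to 26.0, 8.75 and 20.4 CPM. Without the PC cluster of low UMI counts the value was −1.68 (edgeR adjusted p = 0.0043). The PC level itself did not choose the gene, but the sum over all cells did. PC held 20.9% of the WT and 14.8% of the KO UMIs in that sum, so neither test is free of the choice.

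Upstream of the connecting tubule no difference in *Defb2* passed. In the DCT the KO libraries stood at 23.5, 15.4 and 21.8 CPM and the WT libraries at 20.1, 6.71 and 14.8 CPM (on the log2 scale 0.62, edgeR adjusted p = 0.574), and in LOH all 6 libraries were under 3 CPM. The CNT cluster bordering on the DCT was close to the DCT in this respect, with 21.3, 13.4 and 9.79 CPM in KO 1, 2 and 3 beside 13.6, 19.1 and 18.7 CPM in WT 1, 2 and 3. The drop lay in the *Trpv5* cluster, at 15.8, 19.8 and 21.6 CPM in KO. Both intercalated subtypes showed it, with log2 fold changes of −2.92 in type A and −2.82 in type B cells.

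Fewer KO cells carried the transcript. A *Defb2* UMI was found in 34.5, 36.1 and 31.8% of CNT cells in WT 1, 2 and 3 and in 12.9, 11.6 and 15.6% in KO 1, 2 and 3. After each cell was thinned to 1000 UMIs, leaving out 80 WT and 70 KO cells, the shares were 7.05, 5.67 and 5.77% against 1.45, 1.54 and 3.16%. In podocytes, which should lack the gene, at most 0.391% of cells had one, at median depths of 2651 to 5384 UMIs against 6683 to 9160 UMIs in CNT.

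*Defb11* fell in CNT, from 69.7, 56.9 and 45.8 CPM in WT 1, 2 and 3 to 26.4, 28.7 and 31.4 CPM in KO 1, 2 and 3 (log2 fold change −1.01, SE 0.16, edgeR adjusted p = 0.00359). The decrease was smaller than that of *Defb2* in CNT, IC and PC. In IC *Defb11* was at 27.3, 32.4 and 16.5 CPM among WT mice and 5.38, 3.91 and 7.58 CPM among KO mice, a log2 fold change of −2.14 that chose the gene and has no test. The CNT test, in the same mice, is therefore not free of the choice. In PC the groups of *Defb11* did not overlap either, at 48.1, 37.8 and 25.7 CPM against 19.3, 14.2 and 23.6 CPM, but the difference did not pass (log2 fold change −0.89, edgeR adjusted p = 0.106). In the DCT the log2 fold change was −0.16 and did not pass (edgeR adjusted p = 0.909).

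The CNT value of *Defb11* depended on which cells the class held. With no mitochondrial limit it was −0.31 (edgeR adjusted p = 0.59). Clustering without that limit gave the name PC to the cluster led by *Kcne1* and *Trpv5*, so CNT then held other cells. Without the cluster bordering on the DCT the value was −1.22 (edgeR adjusted p = 0.000891).

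*Defb1* did not pass in any of the 11 classes tested by edgeR, where 4 had an unadjusted p under 0.05, or by DESeq2, but its direction differed between segments. In CNT it was at 2115, 2537 and 2506 CPM in KO 1, 2 and 3 beside 3804, 2150 and 4412 CPM in WT 1, 2 and 3 (log2 fold change −0.55, edgeR adjusted p = 0.338), and the groups overlapped through WT 2. In IC the KO libraries were all below the WT libraries, at 1513, 1360 and 1561 CPM against 2247, 1697 and 2305 CPM (on the log2 scale −0.47, edgeR adjusted p = 0.203). In the DCT all KO libraries were above all WT libraries, at 3621, 3567 and 4735 CPM against 2703, 2035 and 3295 CPM (on the log2 scale 0.59, SE 0.16, edgeR adjusted p = 0.121). The median log2 fold change of all genes tested was 0.0037 in CNT, 0.00037 in IC and 0.0053 in the DCT.

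**Figure D3:**
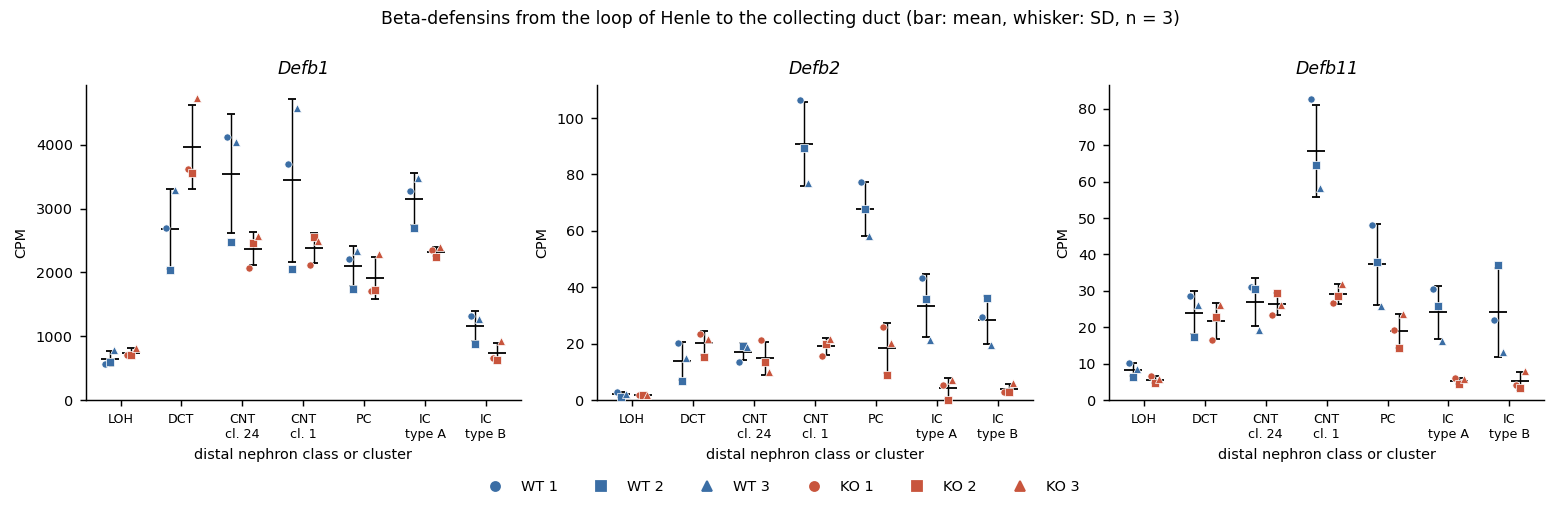
*Defb1*, *Defb2* and *Defb11* (panels) in CPM (y axis, linear from 0) along the distal nephron (x axis), with 1 point per library, WT in blue and KO in red, the mean as a bar and the SD as a whisker (n = 3). In CNT cluster 1 *Defb2* is at 76.9 to 106 CPM among WT mice and 15.8 to 21.6 CPM in KO, while in LOH, DCT and CNT cluster 24 its groups overlap.

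Whether these differences themselves differed between segments was tested against LOH, with the mouse as a block. *Defb1* passed in CNT (difference of log2 fold changes −0.68, SE 0.16, edgeR adjusted p = 0.0204, 1.96% of all genes passing) and in IC (−0.63, SE 0.16, edgeR adjusted p = 0.0367, 1.61% of all genes). These are small differences, and without KO 1, KO 3, WT 1 or WT 3 neither passed, nor did the IC value without KO 2. For *Defb2* in PC the difference against LOH was −1.60 and did not pass (edgeR adjusted p = 0.133, 3.31% of all genes). It was −2.57 for *Defb2* in IC, −1.76 for *Defb2* in CNT and −1.51 for *Defb11* in IC, where the levels in the segment chose the gene, and these are values without a test. In the DCT none of 8 members passed (0.565% of all genes), 4 of them had an unadjusted p under 0.05, and this comparison was not run with another tool. The 8 include *Tff2*, which had no UMI in the DCT, so its difference could not be estimated.

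*Tff2* was found mainly in KO connecting tubule cells, which held 348 of its 544 UMIs in KO, with 153 in IC. In CNT it reached 1.33, 1.21 and 0 CPM in WT 1, 2 and 3 and 28.5, 57.8 and 14.9 CPM in KO 1, 2 and 3. This is 14 UMIs in all WT cells of the class and 348 in KO cells, a ratio of 35.3 per UMI sequenced with an exact 95% interval of 20.8 to 65.2 that covers counting error only. The contrast chose the gene and has no test. Only part of the cells carried it, with a *Tff2* UMI in 7.03, 9.75 and 7.12% of KO CNT cells against 0.351, 1.10 and 0% of WT CNT cells, and the thinned shares were 2.69, 4.63 and 2.81% against 0, 0.189 and 0%.

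All but 1 of the CNT UMIs of *Tff2* in WT, and every one in KO, lay in the *Trpv5* cluster, at 31.4, 67.2 and 16.5 CPM in KO, whereas the cluster bordering on the DCT was at 0 in all KO libraries. Intercalated cells also rose, from 1.66, 0.810 and 0.532 CPM among WT mice to 12.1, 7.58 and 4.30 CPM among KO mice (19 and 153 UMIs, ratio 8.57, exact 95% interval 5.30 to 14.6, log2 fold change 2.99, SE 0.45, edgeR adjusted p = 0.0139). This call was lost without WT 2, WT 3 or KO 1, and without both *Xist* libraries the value was 2.41 (edgeR adjusted p = 0.227). The CNT level in the same mice chose *Tff2*, so the IC test is not free of the choice. The IC level remained below that of CNT in every KO library.

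In PC no WT library held a *Tff2* UMI and KO libraries held 34, at least 22.4-fold higher against a floor of 3 UMIs over the group. Of the 34, 29 lay in the PC cluster of low UMI counts, whose second-best marker list was that of the CNT. In the DCT, MD and DLH no *Tff2* UMI was found in any library. Endothelial cells had a *Tff2* UMI in at most 0.201% of cells and podocytes in at most 0.0624%, both far below the KO CNT share.

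*Lcn2* rose in the principal cells and in the macula densa. In PC it reached 91.5, 70.6 and 81.9 CPM in WT 1, 2 and 3 and 1198, 310 and 325 CPM in KO 1, 2 and 3 (log2 fold change 2.91, SE 0.43, edgeR adjusted p = 0.00423). The groups were far apart although KO 1 stood well above the other KO libraries, and without both *Xist* libraries, KO 1 being one, the value was 1.91 and still passed. PC held 44.3% of the WT and 26.4% of the KO UMIs of *Lcn2* in the sum over all cells, which chose the gene. The test in PC is therefore not free of the choice. The share of PC with an *Lcn2* UMI was 17.9, 15.7 and 17.5% in WT and 41.3, 41.6 and 39.7% in KO libraries. Over all PC this share did not follow the higher level of KO 1. Thinning left out the PC with too few UMIs, 528 in WT and 305 in KO, so the thinned shares cover fewer cells. They were 43.6% in KO 1 beside 19.2 and 25.4% in KO 2 and KO 3, and 5.90 to 8.54% in WT. Among these cells, at equal UMIs, the share was highest in KO 1, as the level was.

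In the MD, the sensor cells of tubular salt beside the glomerulus, *Lcn2* was at 12.7, 6.98 and 10.5 CPM among WT mice and 65.4, 50.01 and 46.2 CPM among KO mice (log2 fold change 2.42, SE 0.33, edgeR adjusted p = 9.9e-05). The class held 48 to 74 cells per library, and all 14 alternatives tried kept the call. The direction was upward in each of the 5 classes tested for *Lcn2*, but IC (1.89, edgeR adjusted p = 0.189), LOH (0.74, edgeR adjusted p = 0.162) and CNT (0.82, edgeR adjusted p = 0.479) did not pass. In CNT *Lcn2* was below free RNA in every library, at 0.121 to 0.860 of it. In LOH it was at 0.487, 0.579 and 0.433 of free RNA in KO 1, 2 and 3, but above it in WT 2 and WT 3. In IC it was below free RNA in KO 1 and KO 2 and above it elsewhere. *Lcn2* in free RNA was itself higher in KO, and its part in these directions was not tested. In type A intercalated cells KO 3 stood alone at 179 CPM while KO 1 and KO 2 were at 23.3 and 16.0 CPM.

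Neutrophil transcripts were more abundant in KO libraries, in cells and in free RNA, and *Lcn2* is one of them. The 11 neutrophil markers summed to 53.0, 22.3 and 9.83 CPM of the free RNA in WT and 770, 394 and 320 CPM among KO mice, with all 11 detected. In PC they summed to 1.21 to 2.88 CPM among WT mice and 17.1, 10.9 and 2.55 CPM among KO mice, with 7 of the 11 detected. KO PC held 2406 *Lcn2* UMIs and 37 UMIs of the 11 markers, or 6503 *Lcn2* UMIs per 100 marker UMIs, where KO neutrophil-like cells held 3.78 per 100. The WT figure for PC was 3606 per 100, from 17 marker UMIs. In the MD it was 172 per 100 in KO, with 8 of the 11 markers detected, and 700 per 100 in WT, from 3 marker UMIs. KO 1, KO 2 and KO 3 held 5.95, 1.79 and 66.2 CPM of the markers in the MD, beside the *Lcn2* levels given above. The part of neutrophil transcripts in the *Lcn2* differences of PC and the MD was not tested.

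**Figure D4:**
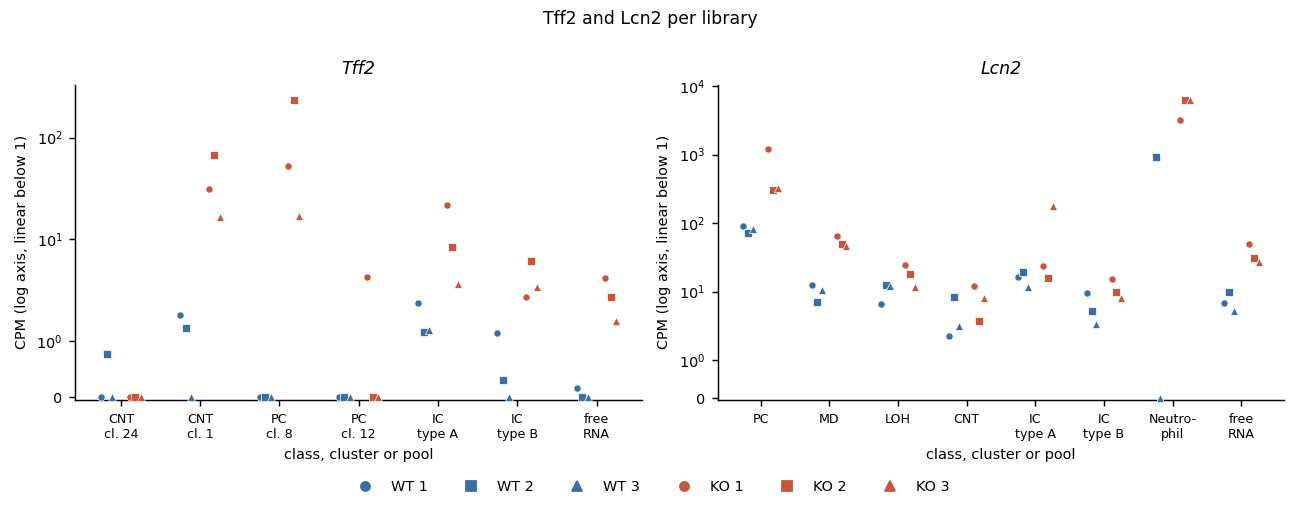
*Tff2* (left) and *Lcn2* (right) in CPM (y axis, log axis that is linear below 1) per library in the classes, clusters and free RNA named on the x axis, WT in blue and KO in red. *Tff2* reaches 16.5 to 67.2 CPM in KO CNT cluster 1 and is 0 in KO CNT cluster 24, and *Lcn2* in PC and MD has all KO libraries above all WT libraries.

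Over all cells of a library *Slpi* rose from 3.48, 3.33 and 1.10 CPM to 35.8, 30.4 and 14.4 CPM (on the log2 scale 3.35, edgeR adjusted p = 0.0304). Besides *Lcn2* and *Defb2*, whose sums over all cells chose them, 7 members were tested over all cells and 2 passed, *Slpi* and *Tff2*, against 0.593% of all genes. CNT, whose *Tff2* level chose that gene, held 348 of its 544 UMIs in KO cells and 14 of its 36 in WT cells. The *Tff2* call over all cells is therefore not free of the choice. With the neutrophil-like cells left out *Slpi* was at 3.48, 0.508 and 0.947 CPM among WT mice and 1.53, 1.54 and 0.687 CPM among KO mice, groups that overlap. The calls of *Slpi* and *Tff2* over all cells were each lost without both *Xist* libraries and without any of WT 1, WT 2, WT 3, KO 1 or KO 2. In a sum over all cells, fewer cells of a type and less RNA per cell cannot be told apart.

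Podocytes were the single class tested for *Slpi*, and it passed there at a low level. The libraries held 0, 0.67 and 0.787 CPM among WT mice and 3.09, 5.67 and 4.72 CPM in KO (7 and 48 UMIs, log2 fold change 3.08, SE 0.59, edgeR adjusted p = 0.0273). These levels were below that of free RNA in every library but KO 2. They were at 0, 0.402 and 0.363 of it in WT 1, 2 and 3 and 0.216, 1.08 and 0.696 in KO 1, 2 and 3. Less than 1% of podocytes had a *Slpi* UMI in any library, and leaving out WT 1, WT 2, WT 3, KO 2 or KO 3, or both *Xist* libraries, ended the call, with edgeR adjusted p of up to 0.1. The 11 neutrophil markers, all detected, rose in the same cells, from 0.657, 1.68 and 1.05 CPM to 28.4, 20.4 and 7.73 CPM. KO podocytes held 20.4 *Slpi* UMIs per 100 marker UMIs and KO neutrophil-like cells 1.63, where WT podocytes held 41.2 and WT neutrophil-like cells 3.05. The part of neutrophil transcripts in this difference was not tested.

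*Lcn2* kept a difference without the neutrophil-like cells. Over all cells it was at 14.9, 14.9 and 12.3 CPM among WT mice and 132, 106 and 95.6 CPM among KO mice, the contrast that chose it (log2 fold change 3.00). Without neutrophil-like cells the KO libraries were at 68.1, 29.6 and 54.1 CPM beside 14.9, 13.3 and 12.3 CPM in WT. Of the *Lcn2* UMIs in KO cells 54.0% lay in neutrophil-like cells and 26.4% in PC, against 4.05% and 44.3% in WT cells.

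**Figure D5:**
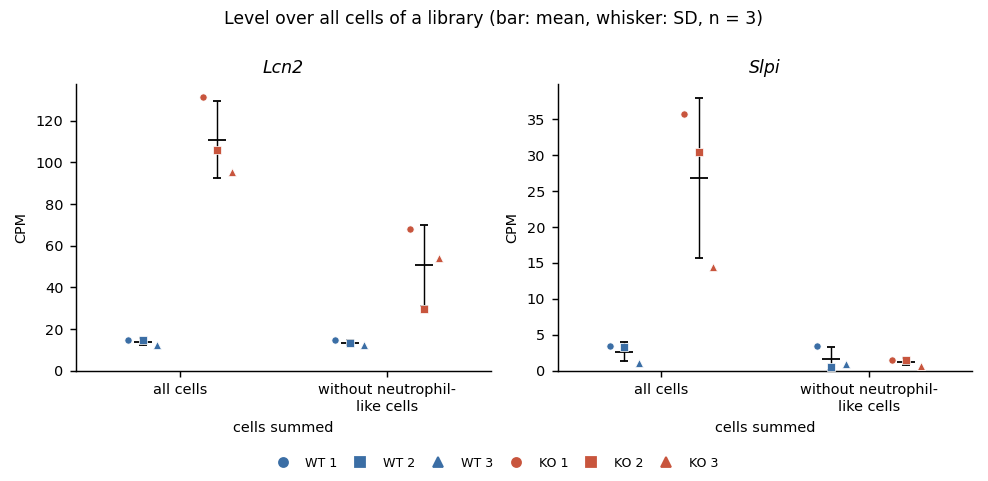
*Lcn2* (left) and *Slpi* (right) in CPM (y axis, linear from 0) over all cells of a library and over the same cells without the neutrophil-like ones (x axis), 1 point per library, WT in blue and KO in red, with the mean as a bar and the SD as a whisker (n = 3). Without those cells *Lcn2* remains at 29.6 to 68.1 CPM in KO and 12.3 to 14.9 CPM in WT, and the *Slpi* groups overlap.

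*Pigr* did not pass in any of 7 classes by edgeR or DESeq2, with 4 at an unadjusted p under 0.05, yet its difference between WT and KO was not the same in IC as in LOH. In IC it was at 31.4, 23.8 and 12.9 CPM among WT mice and 144, 22.3 and 70.7 CPM among KO mice (log2 fold change 1.83, edgeR adjusted p = 0.14), and in LOH at 119, 143 and 91.0 CPM among WT mice and 102, 64.7 and 82.3 CPM among KO mice (−0.51, edgeR adjusted p = 0.111). In IC *Pigr* was below free RNA of the same library in WT 1, 2 and 3, at 0.493, 0.346 and 0.177 of it, and in KO 2 (0.372). It was above free RNA in KO 1 and KO 3 (1.76 and 1.10). In LOH it was above free RNA in all 6 libraries. The difference of the log2 fold changes was 2.19 (SE 0.41, edgeR adjusted p = 0.00215). Without KO 1, which carries the highest IC value, it was 1.77 and did not pass, nor did it without both *Xist* libraries (1.64, edgeR adjusted p = 0.176).

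The higher *Pigr* values of IC lay in type A cells. These held 39.0, 52.7 and 25.9 CPM among WT mice and 272, 45.8 and 171 CPM among KO mice (log2 fold change 2.07, edgeR adjusted p = 0.0745), while the fold change in type B cells was 0.00. In KO 1 a *Pigr* UMI was found in 64.1% of type A cells, and in the other 5 libraries in 17.5 to 26.3%. In the MD the WT libraries were tightly grouped at 79.5 to 80.3 CPM and the KO libraries were all above them, at 220, 91.1 and 93.6 CPM (on the log2 scale 0.76, edgeR adjusted p = 0.188).

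Of the WAP-domain genes, *Wfdc15b* fell in CNT, from 72.0, 75.7 and 58.6 CPM in WT 1, 2 and 3 to 39.8, 34.8 and 39.5 CPM in KO 1, 2 and 3 (log2 fold change −0.86, SE 0.13, edgeR adjusted p = 0.00186). These levels were below those of free RNA in the same libraries, which were 450 to 629 CPM. With no mitochondrial limit, where CNT held other cells, the value was −0.10 (edgeR adjusted p = 0.831). In LOH, where the gene is most abundant, KO libraries were all slightly below WT libraries, at 1777, 2002 and 1853 CPM against 2180, 2103 and 2172 CPM, and did not pass (log2 fold change −0.20, edgeR adjusted p = 0.215). The difference between the CNT and LOH effects passed (−0.68, SE 0.18, edgeR adjusted p = 0.0373), and it was lost without WT 1, WT 2, KO 1 or KO 2 and without both *Xist* libraries.

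*Wfdc2* showed no difference that passed in 10 classes by edgeR or DESeq2, with 2 classes at an unadjusted p under 0.05, edgeR adjusted p from 0.227 to 0.997 and log2 fold changes between −0.49 and 0.38. In CNT, its highest class, the libraries were at 1021, 1129 and 978 CPM among WT mice and 1091, 1158 and 960 CPM in KO (0.03 on the log2 scale). In the DCT all KO libraries were below all WT libraries, at 492, 563 and 453 CPM against 674, 690 and 564 CPM (−0.34, edgeR adjusted p = 0.227).

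Free RNA gave a readout of the same suspensions that no cell class entered. *Defb2* was lower there, at 12.4, 13.99 and 11.3 CPM among WT mice and 4.93, 2.68 and 4.84 CPM among KO mice (log2 fold change −1.51, edgeR adjusted p = 0.0366), and *Lcn2* was higher, at 6.76, 9.83 and 5.16 CPM against 50.3, 31.1 and 26.7 CPM (2.43, edgeR adjusted p = 0.0205). These were 2 of 8 members tested, against 0.211% of all genes. Both genes were chosen by their sums over all cells of the same suspensions, so this count is not free of the choice. Deviations of same-numbered WT and KO libraries correlated positively in free RNA, although WT 3 was closest to KO 2. With the replicate number as a block *Slpi* passed as well (log2 fold change 2.32, edgeR adjusted p = 0.0305, beside 0.072 without the block), which made 3 calls. *Defb11* was lower without passing, at 11.6, 10.99 and 11.7 CPM against 6.47, 5.36 and 6.00 CPM (−0.83, edgeR adjusted p = 0.134). *Tff2* had too few UMIs in free RNA to be tested, at 0.161, 0 and 0 CPM against 4.16, 2.68 and 1.55 CPM. Without both *Xist* libraries, or without any of WT 1, WT 2, WT 3 or KO 2, neither of the 2 calls passed, and leaving out KO 1 ended that of *Defb2*.

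Barcodes with more than 50% mitochondrial UMIs, which the cell filter removes, were summed as a further pool. Of 8 members 1 passed there, against 0.429% of all genes, and this was *Tff2*, at 0.122, 0.0614 and 0.0511 CPM among WT mice and 1.47, 1.71 and 0.862 CPM among KO mice (log2 fold change 4.17, SE 0.43, edgeR adjusted p = 0.018). The call was lost on leaving out any library but KO 3, and the CNT level of *Tff2* in the same mice chose the gene. *Defb2* (−0.65, edgeR adjusted p = 0.244) and *Lcn2* (2.05, edgeR adjusted p = 0.0697) had the direction seen in the cells. Over all retained cells *Tff2* was at 0.575, 0.423 and 0.0946 CPM among WT mice and 8.204, 8.97 and 2.81 CPM among KO mice (4.17, edgeR adjusted p = 0.0367). That sum holds the CNT contrast that chose *Tff2*. *Defb2* was at 30.3, 25.9 and 18.7 CPM against 7.10, 4.27 and 7.10 CPM over all retained cells, the contrast that chose it (−1.98).

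Other defence genes of the kidney were read from lists that, like the members, were drawn up with earlier results of these libraries known. Of 40 further defensin and cathelicidin genes, 24 were in the count tables and 6 pairs of a gene and a class could be tested, of which 4 were higher and 1 lower in KO. The calls came from 3 genes, *Defb42*, *Defb29* and *Defb9*, and stand beside 4.43% of all genes passing in LOH, 1.22% in the MD, 3.09% in CNT and 2.29% in PC. *Defb42* rose in LOH, from 19.96, 17.4 and 17.5 CPM to 75.1, 71.7 and 64.1 CPM (on the log2 scale 1.94, edgeR adjusted p = 2.26e-06), and in the MD (1.49, edgeR adjusted p = 0.00322). *Defb42* was itself among the leading genes of 1 of the 3 LOH clusters. *Defb29* rose in PC, from 23.5, 16.2 and 19.3 CPM to 105, 128 and 145 CPM (2.71, edgeR adjusted p = 4.69e-05), and at a lower level in CNT (2.31, edgeR adjusted p = 0.00912). *Defb9* fell in CNT, from 62 UMIs in WT to 7 in KO cells (−2.58, edgeR adjusted p = 0.035), the same direction as *Defb2* and *Defb11*, with which it shares sequence.

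The rise of *Defb42* was seen in each LOH cluster. In the cluster that has *Defb42* among its leading genes it was at 34.2, 35.2 and 27.4 CPM among WT mice and 118, 100.2 and 95.8 CPM among KO mice, and in the largest LOH cluster at 11.2, 9.06 and 11.5 CPM against 49.7, 48.8 and 37.6 CPM. In the PC cluster of high UMI counts *Defb29* was at 25.2, 16.9 and 18.8 CPM among WT mice and 117, 137 and 153 CPM among KO mice. The *Defb42* call in the MD was lost without both *Xist* libraries (edgeR adjusted p = 0.1).

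Of the 27 genes on the pathways that induce these proteins, 208 pairs were tested, and 7 were higher and 2 lower in KO. This is 4.33% of pairs, where 1.51% of all genes passed in the same classes, weighted by the number of pairs tested in each. In LOH, which gave 3 of the 9 calls, 4.43% of all genes passed. *Nfkbiz*, a nuclear protein of the IκB family that takes part in *Lcn2* induction, rose in LOH (0.65, edgeR adjusted p = 0.0161), the MD (1.13, edgeR adjusted p = 0.000719) and IC (0.65, edgeR adjusted p = 0.0447). *Socs3*, a STAT3 target, rose in PC, from 24.3, 65.6 and 42.9 CPM to 158, 155 and 154 CPM (1.82, edgeR adjusted p = 0.00413), and in LOH (0.68, edgeR adjusted p = 0.00627). *Cebpb* rose in LOH (0.60, edgeR adjusted p = 0.0112) and *Stat3* in podocytes (0.66, edgeR adjusted p = 0.0119). The genes that fell were both in CNT, *Cebpd* from 164, 193 and 150 CPM to 89.8, 94.4 and 77.7 CPM (−0.96, edgeR adjusted p = 0.000378) and *Esrrb* (−1.36, edgeR adjusted p = 0.0166).

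Receptors, transport partners and related secreted proteins were read in the same way. *Lrp2*, which encodes megalin, an endocytic receptor of lipocalin-2, rose in CNT from 7.04, 4.31 and 4.22 CPM to 22.0, 22.7 and 19.7 CPM (2.03, edgeR adjusted p = 0.000195), 1 of 12 pairs tested for 3 receptors, against 1.61% of all genes weighted as above. None of 35 pairs for 8 partners of *Pigr* in transcytosis passed by edgeR or DESeq2, with 7 at an unadjusted p under 0.05. None of 19 pairs for trefoil and mucin genes passed by edgeR, with 7 at an unadjusted p under 0.05 and 1 called by DESeq2. Among 13 further WFDC genes, 1 of 5 pairs passed (against 1.39% of all genes), *Wfdc1* in podocytes (1.90, edgeR adjusted p = 0.0432). Of 18 pairs for lectin-like and complement genes 4 passed, against 1.19% of all genes. These were *Chil1*, encoding a chitinase-like protein, which rose in CNT (2.32, edgeR adjusted p = 0.0347) and PC (1.27, edgeR adjusted p = 0.0173), and *Spp1*, encoding osteopontin, which rose in the MD (0.63, edgeR adjusted p = 0.0197) and DCT (0.55, edgeR adjusted p = 0.0162). Of 47 pairs for lysozyme, RNase and metal-binding genes 2 passed, against 1.49% of all genes. *S100a8* rose in podocytes (4.17, edgeR adjusted p = 0.00613), which was also the 1 of 4 pairs of the neutrophil list that passed (against 1.65% of all genes), and the ferritin gene *Ftl1* fell in LOH (−0.37, edgeR adjusted p = 0.0345).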

How the data were processed

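The renal cortex of 3 WT and 3 KO mice, aged 9 months, was profiled in 6 single-cell libraries. The deposited files hold UMI counts per gene and barcode, which the authors made with the BD Rhapsody WTA pipeline from reads aligned to mm10 with a GENCODE annotation and then analysed in Scanpy (version 1.8). Total UMIs were 96382945 to 121198131 per library.

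Barcodes with 500 to 60000 UMIs, 200 to 8000 genes and at most 50% mitochondrial UMIs were kept. Scrublet's automatic threshold marked 0.168 to 0.584% of barcodes, so the 6% with the highest scores were removed in each library instead. Cells were clustered without the 9 genes in scanpy 1.11.5 (2000 variable genes, 30 principal components, 15 neighbours, Leiden resolution 1.0), and 31 of 33 clusters were named from 144 marker genes. UMIs were summed per library and class and tested in edgeR 4.0.16 (quasi-likelihood, TMM, minimum count 10, Benjamini-Hochberg over all genes), where each library had 20 or more cells of the class, with DESeq2 1.42.0 as an alternative. The edgeR step was tested on simulated data. Fold changes are KO over WT on the log2 scale.

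The members and lists were chosen with earlier results of these data known. All 9 members are named throughout, with at most 3 called genes per list and class by size of change and the 3 genes most alike over classes. Deviations of same-numbered WT and KO libraries correlated positively in free RNA (0.359, 0.107 and 0.161) and in barcodes over the mitochondrial limit (0.554, 0.188 and 0.252). In both pools WT 3 was closest to KO 2 rather than KO 3. Over all cells the correlations were 0.266, −0.0557 and 0.288. No cell class had positive values for every replicate number. The pairing comes from the numbers in the titles. The alternatives were other normalization, filters, mitochondrial limits, class naming, blocks for replicate number and *Xist*, and leaving out libraries. The splits of IC, PC and CNT by cluster were added after seeing the data. Intervals and floors cover counting error only. Each library came from 1 mouse.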

Additional observations from a re-analysis of the deposited data

Results flagged for a closer look

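The difference between WT and KO in a distal segment departed from that in LOH for 4 of 28 combinations of a gene and a segment. In these 28 the level in the segment did not choose the gene. *Lcn2* and *Defb2* were also chosen by sums over all cells, which hold every segment, and none of the 4 is of these genes. The departure from LOH is what drew attention to the 4. They were 2 of 6 in CNT, against 1.96% of all genes, and 2 of 6 in IC, against 1.61%, while by edgeR none of 8 passed in PC or in the DCT, where 2 and 4 had an unadjusted p under 0.05. The 28 include *Tff2* in IC, PC and the DCT, a gene with no UMI in WT LOH cells. It also had none in WT PC or in any DCT cells, so its differences in PC and the DCT could not be estimated. In CNT the difference of log2 fold changes was −0.68 for *Defb1* (SE 0.16, edgeR adjusted p = 0.0204) and −0.68 for *Wfdc15b* (SE 0.18, edgeR adjusted p = 0.0373). In IC it was −0.63 for *Defb1* (SE 0.16, edgeR adjusted p = 0.0367) and 2.19 for *Pigr* (SE 0.41, edgeR adjusted p = 0.00215). For *Defb11* and *Defb2* in IC it was −1.51 and −2.57, and since their levels in IC chose these genes the values are a description and carry no test. The 4 kept their direction in 8 of 8 alternatives, and none of them passed without KO 1. The level of *Pigr* in IC exceeded that of free RNA only in KO 1 and KO 3, and that of *Wfdc15b* in CNT in none of the libraries.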

How the results depend on the processing

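Of 470 alternative values for 34 single results, 381 kept direction and side of the threshold, 73 no longer passed, 14 newly passed and 2 turned direction: *Defb11* in the DCT without KO 1 (0.059, with a range of −0.37 to 0.059 on leaving out 1 library) and *Pigr* in the DCT without both *Xist* libraries (−0.054). The counts of calls that follow still hold the contrasts that chose the members, 4 within classes, 2 over all cells and 2 between segments, so they describe the settings and say nothing for those contrasts. The 11 calls within classes became 25 with no count filter, and ranged from 10 to 11 on leaving out 1 library. The 4 calls over all cells became 1 without the *Xist* libraries, with a range of 1 to 5 on leaving out 1 library, where removing WT 1, WT 2, WT 3, KO 1 or KO 2 left 1. The 2 calls in free RNA became 1 with barcodes of 10 to 50 UMIs, 5 with no count filter and 0 without the *Xist* libraries (range 0 to 4). The 1 call over the mitochondrial limit became 3 with DESeq2, 2 with the *Xist* block, 2 with no count filter and 0 without the *Xist* libraries (range 0 to 1). The 6 differences between segments became 15 with no count filter and 3 without the *Xist* libraries (range 0 to 5), and the *Xist* block was not run for them because the mouse is already a block. The higher neutrophil-like share in KO, 1.97 percentage points, was 2.97 at a mitochondrial limit of 30% (range 1.23 to 2.37). The cause of these changes was not tested.

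With the replicate number as a block there were 12 calls within classes, 4 over all cells, 3 in free RNA and 1 over the mitochondrial limit, where *Tff2* was at 4.15. Genes with few UMIs limit what could be tested, and 51 of 108 pairs of a gene and a class fell under the count filter.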

Other observations

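An unnamed cluster of 97 cells, led by *Psca*, *Gabrp*, *Upk3b* and *Krt19*, lay outside the comparisons because 1 library held a single cell of it. Several of the defence genes were abundant there. *Wfdc2* reached 1937, 2323 and 2671 CPM in WT 1, 2 and 3 and 4539, 3345 and 3706 CPM in KO 1, 2 and 3, above its level in every named class. *Lcn2* was at 1872, 447 and 285 CPM among WT mice and 928, 578 and 625 CPM among KO mice, and *Pigr* at 697, 620 and 198 CPM against 799, 289 and 426 CPM. The value of WT 1 comes from 1 cell.

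Proximal tubule cells were too few to compare, with 9 cells in the smallest library, and their *Pigr* level ranged from 0 to 2232 CPM between libraries. Outside neutrophil-like cells *Slpi* was also found in B cells, where WT 1 had 937 and KO 1 had 165 CPM.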
